A study of Mus musculus with 9 samples.

Results

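Liver cells make superoxide and hydrogen peroxide in mitochondria, peroxisomes and the endoplasmic reticulum, and alcohol oxidation is a known source of both. Superoxide dismutases turn superoxide into hydrogen peroxide. Catalase, the glutathione peroxidases and the peroxiredoxins then remove peroxides. The peroxidases and peroxiredoxins use electrons from glutathione or thioredoxin, which are drawn in turn from NADPH. The 10 genes followed here are 3 superoxide dismutases (Sod1, Sod2 and Sod3), catalase (Cat), 2 selenium-containing glutathione peroxidases (Gpx1 and Gpx4) and 4 peroxiredoxins (Prdx1, Prdx3, Prdx5 and Prdx6). They were taken by gene symbol from an expression table of 31964 gene IDs, and each was found once.

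RNA was sequenced from 9 mouse liver samples in 3 groups of 3, which the labels call M (replicates 24, 26 and 27), A-C (replicates 6, 9 and 12) and C (replicates 2, 3 and 4). The stated subject is a mouse model of alcoholic liver disease known by the initials NIAAA, in which alcohol is fed in a liquid diet, and its treatment with the drug magnesium isoglycyrrhizinate. What the letters mean in terms of diet or drug is not in the labels, nor are age, sex, dose or time, so the groups were compared by letter. The strain is given as C57BL6J, and as C57BL7J for C replicate 4. Whether each sample is a different animal is not stated, and the spread between samples behind each p-value may be technical.

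The reads behind the deposited values, recovered as whole numbers, came to between 53879277 and 57046246 per library in M, 52392521 and 65165613 in A-C, and 45597163 and 46631110 in C. The labels give the cell type as hepatocyte, and the 11 hepatocyte markers summed to between 97282 and 112290 scaled TPM in M, 93609 and 161250 in A-C, and 174740 and 188720 in C. Markers of other liver cells were present as well: 13 Kupffer cell genes summed to between 200 and 449 scaled TPM and 11 endothelial genes to between 83.5 and 198 over the 9 libraries. In the limma test used for all genes, 1 of 11 hepatocyte genes fell in A-C versus C, while 4 of 12 tested Kupffer cell genes and 7 of 11 endothelial genes rose, where 9.71% of all genes rose and 7.17% fell. In M versus C, 1 hepatocyte gene rose and 1 fell, and 1 Kupffer cell gene and 2 endothelial genes rose, where 9.31% of all genes rose and 6.72% fell. The 4 Kupffer cell calls and the hepatocyte call for A-C versus C were each lost in 3 to 6 of the 9 fits without 1 library (adjusted p up to 0.125), as were 4 of the 7 endothelial calls for A-C versus C in 2 to 6 fits (up to 0.161). Of the M versus C calls, the hepatocyte gene that fell (Apoa1) was kept in all 9 fits, and each of the others was lost in 4 to 7 (up to 0.166). The 8 B cell genes summed to at most 10.4 scaled TPM in M and 9.27 in A-C, and to at least 34.3 in C. In C replicate 2, 27.6% of the TPM came from the mitochondrial genome, against 11.9% to 15.4% in each of the other libraries. The 25 acute phase genes, liver proteins secreted in inflammation, took 3.32%, 14.98% and 11.1% of the TPM in M replicates 24, 26 and 27, 2.67%, 7.64% and 20.1% in A-C replicates 6, 9 and 12, and between 1.51% and 1.90% in C. M replicate 24 and A-C replicate 6 thus stood near C in this respect, apart from the other libraries of their groups.

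Together the 10 genes took between 0.638% and 0.812% of the TPM in M, 0.425% and 0.618% in A-C, and 0.437% and 0.598% in C. With the deposited gene lengths, Cat and Gpx1 alone made up between 52.4% and 69.0% of that sum. In M and in A-C the order of mean levels began with Gpx1, Cat, Prdx1, Sod1 and Gpx4, and in C with Cat, Gpx1, Sod1, Prdx1 and Gpx4. Neighbours that overlapped between libraries, and so cannot be ranked, were Gpx1 and Cat in M and in A-C, Prdx1 and Sod1 in A-C and in C, Sod1 and Gpx4 in A-C, Prdx1 and Gpx4 in C, and Gpx4 and Prdx6 in M. Prdx3, Prdx5 and Prdx6 also overlapped with their neighbours among themselves in every group. They lay between 129.6 and 306 scaled TPM in every library, followed by Sod2 and, last in each group, Sod3. TPM divides by gene length, and the deposited length of Sod1 is 3970 bases, 6.19 times the 641 bases of its principal transcript in GENCODE M21. With principal transcript lengths, a choice made after the data were seen, Sod1 came first in A-C at 3196 ± 519 scaled TPM and first in C at 3730 ± 142 (SD, n = 3 each). The order between genes and the share of Cat and Gpx1 therefore depend on the length used. Comparisons of 1 gene between groups do not.

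**Figure D1:**
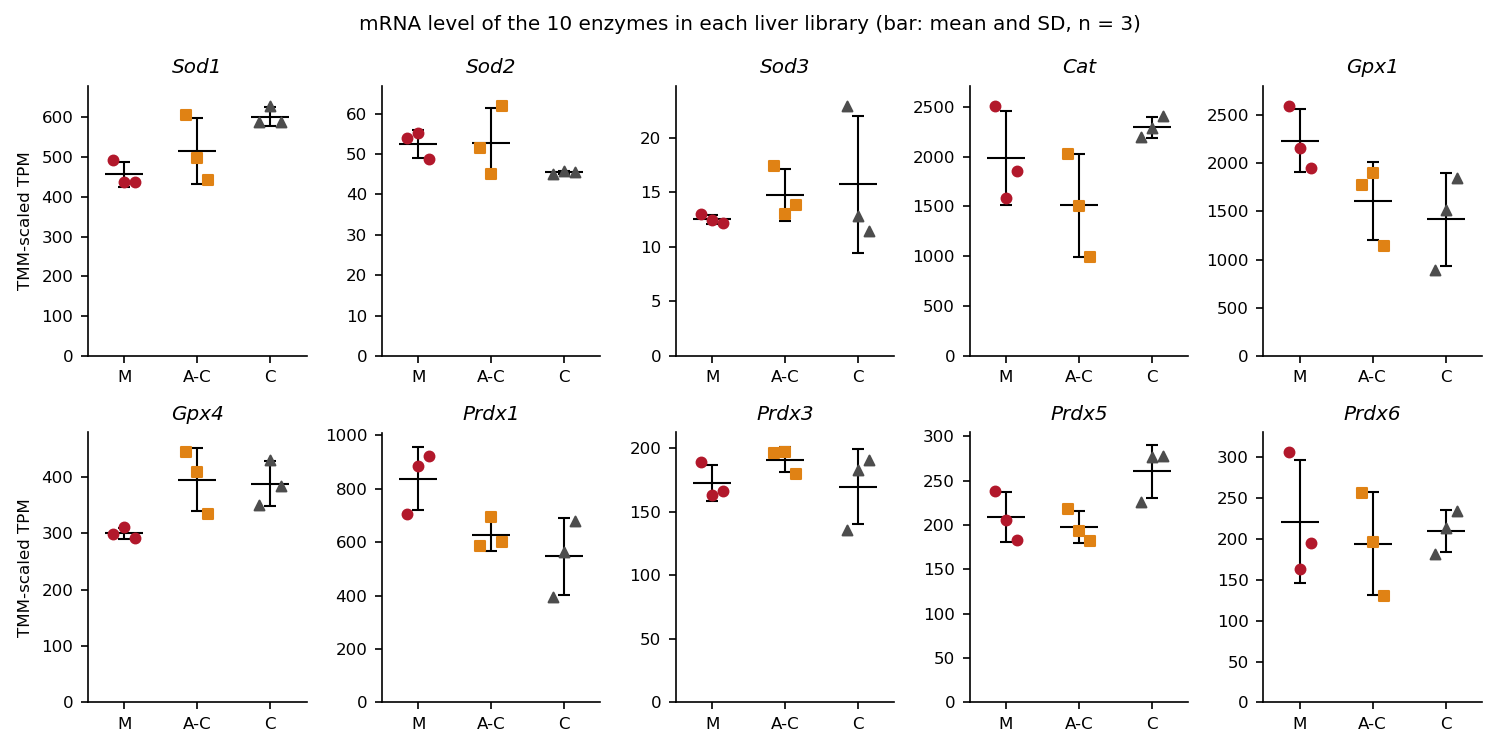
Level of each of the 10 enzymes in TMM-scaled TPM (vertical axis, from 0) in the M, A-C and C libraries, 1 point per library, with the group mean as a bar and the SD (n = 3) as whiskers. The 3 Gpx1 and Prdx1 points of M lie above those of both other groups, the 3 Gpx4 points of M lie below both, and the Cat points of A-C lie below those of C.

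None of the 10 genes passed the test in any of the 3 comparisons. The test was limma on log2(scaled TPM + 1) with all 9 libraries in 1 fit and Benjamini-Hochberg adjustment over the 11086 genes tested, at a threshold of 0.05. At that threshold 16.9% of all tested genes were called for A-C versus C, 0.171% for M versus A-C and 16.0% for M versus C. All 10 members passed the filter of a TPM of at least 1 in at least 3 libraries, and the fewest reads behind any of their values were 853, for Sod3. The spread between libraries was under 2 times the error of counting reads in 2 of the 30 pairs of member and group. These were Sod2 in C, with a coefficient of variation of 0.646% and a counting error of 1.046%, and Sod3 in M, with 3.36% and 2.91%. The smallest adjusted p of any member was 0.113 for A-C versus C (Prdx5), 0.391 for M versus A-C (Gpx4) and 0.0707 for M versus C (Prdx1). Without adjustment, 2 members had a p under 0.05 for A-C versus C against 35.2% of all genes, 1 for M versus A-C against 11.5%, and 4 for M versus C against 35.1%. The median log2 change of the members was -0.01 for A-C versus C, where that of all tested genes was 0.03. It was 0.04 against 0.02 for M versus A-C, and -0.10 against 0.05 for M versus C. The comparisons of A-C and of M with C share the C libraries and are not independent of each other.

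**Figure D2:**
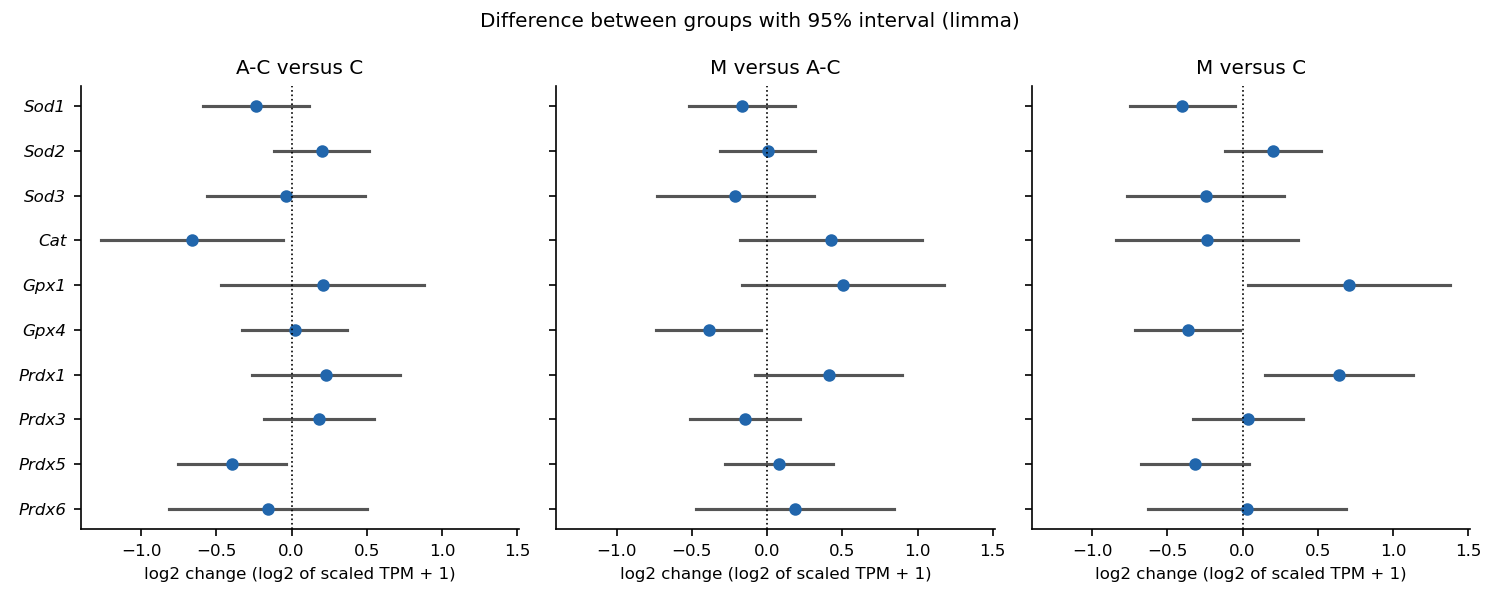
Difference between groups for each enzyme as a log2 change on the log2(scaled TPM + 1) scale (horizontal axis), as points with 95% intervals from limma. The panels show A-C versus C, then M versus A-C, then M versus C. The intervals are wide: that of Gpx1 runs from 0.04 to 1.38 for M versus C, and that of Cat from -1.27 to -0.06 for A-C versus C.

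Sod1 (mm10 chr16:90220754-90226329, plus strand) encodes the copper-zinc superoxide dismutase of the cytosol. It stood at 494, 439 and 439 scaled TPM in M replicates 24, 26 and 27, at 607, 498 and 443 in A-C replicates 6, 9 and 12, and at 589.7, 629 and 588 in C replicates 2, 3 and 4. All 3 M libraries were below all 3 C libraries, while A-C spread over the range of both. The log2 change was -0.40 for M versus C (SE 0.16, limma adjusted p = 0.104), and it was -0.23 for A-C versus C (SE 0.16, adjusted p = 0.312). Ccs, the chaperone that loads copper into Sod1, stood between 113 and 197 scaled TPM in M, 106 and 173 in A-C, and 159 and 232 in C, and was not called.

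Sod2 (chr17:13006846-13040063, plus strand), the manganese enzyme of the mitochondrial matrix, stood at 53.9, 55.1 and 48.6 scaled TPM in M, at 51.4, 44.99 and 61.9 in A-C, and at 45.1, 45.7 and 45.5 in C. The C libraries hardly differed from each other (coefficient of variation 0.646%), and every M library was above them by a small margin. The log2 change was 0.20 for M versus C (95% interval -0.11 to 0.52, limma adjusted p = 0.326), 0.20 for A-C versus C (adjusted p = 0.338) and 0.00 for M versus A-C (interval -0.31 to 0.32). The highest value, 61.9, came from A-C replicate 12, the library with the largest acute phase share. Of the 75-base stretches of the Sod2 transcripts, 16.2% also occur in other annotated genes, so part of its reads could have been placed elsewhere.

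Sod3 (chr5:52363791-52371418, plus strand), the secreted superoxide dismutase of the extracellular space, was the lowest of the 10 at 13.0, 12.4 and 12.1 scaled TPM in M, 17.4, 13.0 and 13.8 in A-C, and 22.9, 12.8 and 11.4 in C. Its spread within C came from C replicate 2 alone. That library also had the highest sum of stellate cell and matrix markers of the C group (157 scaled TPM, against 105 and 110.5 in the other two) and of endothelial markers (134.8, against 83.5 and 93.1). The sums did not go with Sod3 in the same way across groups. In A-C they were 155 to 186 and 184 to 198, with Sod3 at 13.0 to 17.4. In M they were 109 to 129 and 104 to 142, with Sod3 at 12.1 to 13.0. The part these cells play in the Sod3 level was not tested, and in bulk tissue fewer cells of a type and less RNA per cell cannot be told apart. The log2 change was -0.04 for A-C versus C and 0.25 once C replicate 2 was left out, and neither value passed the test. All M libraries were below the A-C libraries, but M replicate 24 (12.969) and A-C replicate 9 (12.971) were all but equal, with a log2 change of -0.21 for M versus A-C (limma adjusted p = 0.792).

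Catalase breaks down hydrogen peroxide in peroxisomes without another electron donor, and can also oxidise ethanol. Cat (chr2:103453849-103485160, minus strand) stood at 2508, 1586 and 1859 scaled TPM in M replicates 24, 26 and 27, at 2024, 1509.5 and 997 in A-C replicates 6, 9 and 12, and at 2196, 2286 and 2403 in C replicates 2, 3 and 4. All 3 A-C libraries were below all 3 C libraries, whereas the M libraries overlapped with both. The mean was 1510.2 ± 514 scaled TPM in A-C and 2295 ± 104 in C (SD, n = 3 each). The log2 change for A-C versus C was -0.66 (SE 0.27, limma adjusted p = 0.115, unadjusted p = 0.0357), and leaving out 1 library at a time gave adjusted p-values between 0.0407 and 0.272. The value passed the threshold once A-C replicate 6 was left out (log2 change -0.90), a setting in which 8.13% of all tested genes were called as lower. Without A-C replicate 12 the log2 change was -0.39 (adjusted p = 0.272). With the mean level of the acute phase genes as a covariate, a fit added after the data were seen, it was -0.0036 (adjusted p = 0.990). That mean level was lower in every C library than in every A-C library, so the fit cannot separate it from the group difference. For M versus A-C the log2 change was 0.43 (95% interval -0.18 to 1.03), and for M versus C it was -0.24 (adjusted p = 0.557).

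Gpx1 and Gpx4 both carry selenocysteine and use glutathione. Gpx1 acts on soluble peroxides in the cytosol and mitochondria, and Gpx4 on lipid peroxides in membranes, where it is known for blocking ferroptosis. Gpx1 (chr9:108338903-108340343, plus strand) stood at 2595, 2155 and 1954 scaled TPM in M, at 1775, 1897 and 1141 in A-C, and at 894, 1512 and 1850.0 in C. Every M library was above every A-C and C library, while A-C and C overlapped. The log2 change was 0.71 for M versus C (SE 0.30, limma adjusted p = 0.126) and 0.50 for M versus A-C (SE 0.30, adjusted p = 0.575). Within C the gene varied widely (coefficient of variation 34.2%), with C replicate 2 the lowest library. Without that library the log2 change for M versus C was 0.41 (adjusted p = 0.328), and without A-C replicate 12 that for M versus A-C was 0.27 (adjusted p = 0.697).

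Gpx4 (chr10:80047166-80056439, plus strand) went the other way: it stood at 298, 310.4 and 292 scaled TPM in M, at 443, 408 and 334 in A-C, and at 349.7, 430.0 and 384 in C. All 3 M libraries lay close together, below each A-C and C library. The log2 change was -0.39 for M versus A-C (SE 0.15, limma adjusted p = 0.391, unadjusted p = 0.0332) and -0.36 for M versus C (adjusted p = 0.128). For A-C versus C it was 0.02 (95% interval -0.33 to 0.37). Gpx4 shares 29.8% of its 75-base stretches with 2 other annotated genes, among them the pseudogene Gpx4-ps2, so its count is less certain than that of Gpx1, which shares none.

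Prdx1 (chr4:116685544-116700822, plus strand), the abundant peroxiredoxin of the cytosol, takes its electrons from thioredoxin. It stood at 705, 887 and 922 scaled TPM in M, at 587, 695 and 599.9 in A-C, and at 396, 565 and 679.8 in C. Every M library was above every A-C and C library, though M replicate 24 exceeded A-C replicate 9 only narrowly. The mean was 838 ± 116 scaled TPM in M and 547 ± 143 in C (SD, n = 3 each). The log2 change for M versus C was 0.64 (SE 0.22, 95% interval 0.15 to 1.13, limma adjusted p = 0.0707), and leaving out 1 library at a time gave adjusted p-values between 0.0514 and 0.223. It was 0.41 for M versus A-C (adjusted p = 0.523), and it was 0.23 for A-C versus C (adjusted p = 0.477). Without C replicate 2, its lowest library, the log2 change was 0.43 for M versus C (adjusted p = 0.172), and it was 0.014 for A-C versus C (adjusted p = 0.968).

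Promoter stretches are shown for Sod1 and Prdx1, the members that hold the core of the antioxidant response element bound by the factor NRF2, and for Txnrd1 and Sesn2, genes of the electron supply list described further on, of which Txnrd1 rose and Sesn2 fell in A-C against C. The letters searched were TGACNNNGC on both strands in the 250 bases before each annotated start (RefSeq, build GRCm38.p6), and capitals mark the match.
Sod1: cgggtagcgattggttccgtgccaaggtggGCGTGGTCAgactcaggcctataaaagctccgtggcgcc
Prdx1: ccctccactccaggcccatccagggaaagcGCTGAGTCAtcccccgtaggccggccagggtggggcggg
Txnrd1: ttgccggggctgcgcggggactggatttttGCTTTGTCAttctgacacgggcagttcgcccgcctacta
Sesn2: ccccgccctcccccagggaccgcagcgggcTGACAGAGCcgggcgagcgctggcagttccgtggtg
The first 3 are on the plus strand, at chr16:90220676-90220744, chr4:116685436-116685504 and chr10:82859084-82859152, and that of Sesn2 is on the minus strand, at chr4:132510457-132510522. The match lies 56, 133, 92 and 36 bases before the start. Of the same supply list Gclm and G6pdx also hold a match, and neither was called in any comparison. Of the members, 8 had a promoter window, with 11 windows in all, and 2 had a match, while 10.16% of all 32851 windows hold one. Sod3 and Prdx6 had no window. In these samples Prdx1 and Txnrd1 were higher, and Sod1 lower, in every M library than in every C library, while Sesn2 overlapped between M and C.

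For M versus C the log2 changes of the other 3 peroxiredoxins, 0.04 for Prdx3, -0.32 for Prdx5 and 0.03 for Prdx6, were smaller than that of Prdx1. Prdx3 (chr19:60864051-60874556, minus strand), the thioredoxin-dependent enzyme of mitochondria, stood at 189, 163 and 166 scaled TPM in M, at 196, 196 and 179 in A-C, and at 136, 183 and 191 in C, with all groups overlapping. Prdx5 (chr19:6906697-6910106, minus strand), found in mitochondria, peroxisomes and the cytosol, stood at 239, 206 and 183 in M, at 218, 193 and 183 in A-C, and at 226, 277 and 278 in C. All 3 A-C libraries were below all 3 C libraries for Prdx5, and the log2 change for A-C versus C was -0.39 (SE 0.16, limma adjusted p = 0.113). Its exons overlap those of Trmt112 on the opposite strand, and without a stated use of strand the reads of these genes cannot be told apart. Prdx6 (chr1:161240112-161251219, minus strand), which takes electrons from glutathione and also has phospholipase activity, stood at 306, 163 and 195 in M, at 256, 197 and 129.6 in A-C, and at 182, 214 and 234 in C. It ranged more widely within M and within A-C than between the group means, which were 221, 194 and 209.8.

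In groups that do not overlap, 2 of the 10 genes separated A-C from C (Cat and Prdx5, both lower in A-C), against 41.2% of all tested genes. For M versus A-C 4 separated the groups (Gpx1 and Prdx1 higher in M, Sod3 and Gpx4 lower), against 16.2% of all genes. For M versus C 5 did so (Sod2, Gpx1 and Prdx1 higher in M, Sod1 and Gpx4 lower), against 41.6% of all genes. The share of members that separated M from A-C was above the share of all genes and that for A-C versus C below it, and each rests on few genes. For M versus A-C, Sod3 separated only by 12.969 in M replicate 24 against 12.971 in A-C replicate 9. Its counting error in M was 2.91%. Prdx1 separated narrowly, at 705 in M replicate 24 against 695 in A-C replicate 9. The hepatocyte marker sum was lower in every M and A-C library than in every C library, and its part in these differences was not tested.

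The scaling divisors were 1.07 to 1.10 in M and 1.001 to 1.09 in A-C, against 0.867 to 0.902 in C, so the level of each gene against C depends on the scaling. In the TPM as deposited, Sod2, Gpx1 and Prdx1 were called higher in M than in C. The log2 change for M versus C was then 0.48 for Sod2 (limma adjusted p = 0.0331), 0.99 for Gpx1 (adjusted p = 0.0401) and 0.92 for Prdx1 (adjusted p = 0.0179). In that setting 26.4% of all tested genes were called higher in M, and the median log2 change of all genes was 0.27 in place of 0.05.

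Ratios between enzymes within a library do not depend on scaling. Their size depends on the gene lengths used, here the deposited ones, but their order between libraries does not. The ratio of Gpx1 to Gpx4 was 8.71, 6.94 and 6.70 in M replicates 24, 26 and 27, 4.004, 4.65 and 3.41 in A-C, and 2.56, 3.52 and 4.82 in C. The lowest M library was above the highest of the other groups. The ratio of Gpx4 to Prdx1 also set M apart, at 0.363 ± 0.0542 in M, 0.633 ± 0.107 in A-C and 0.737 ± 0.161 in C (mean and SD, n = 3 each), with M below every other library. Both outcomes were fixed by the single genes. Every M library was above all others for Gpx1 and Prdx1 and below all others for Gpx4. The ratio of Cat to Gpx1 was 0.967, 0.736 and 0.951 in M, 1.14, 0.796 and 0.873 in A-C, and 2.46, 1.51 and 1.30 in C. Both M and A-C lay below C without overlap, and their own ranges overlapped. Prdx1 over Prdx5 was 4.10 ± 1.06 in M, 3.19 ± 0.464 in A-C and 2.08 ± 0.348 in C, with M and A-C both above C. The ratio of Sod1 to Sod2 was 8.71 ± 0.655 in M, 10.01 ± 2.503 in A-C and 13.3 ± 0.450 in C, and every M and A-C library was below C. For M versus C this too was fixed by the orders of Sod1 and Sod2. The ratios shown were picked from the 45 between the members.

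**Figure D3:**
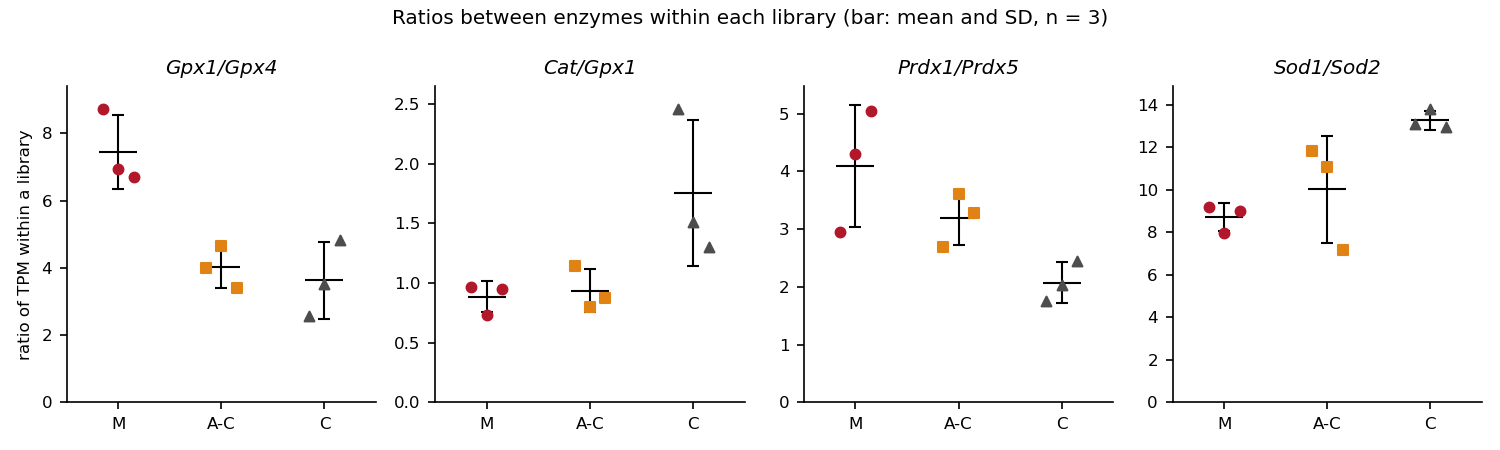
Ratio of TPM between enzymes within each library (vertical axes, from 0) for Gpx1 over Gpx4, Cat over Gpx1, Prdx1 over Prdx5 and Sod1 over Sod2 in the M, A-C and C groups, 1 point per library, with mean and SD (n = 3). Gpx1 over Gpx4 sets M apart from both other groups, while the other 3 ratios set M and A-C apart from C. The first follows from the levels of its genes alone, as does Sod1 over Sod2 for M versus C.

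Of the 45 ratios between the members, 17 separated M from A-C without overlap, against 16.5% of the ratios between all pairs of genes above 0 in every library. The number was 13 for A-C versus C, against 41.3% of all pairs, and 19 for M versus C, against 41.0%. The ratios share genes and are not independent, and no test was made of these counts. Among the 17, Gpx1 stood higher in M relative to Sod1, Sod3, Gpx4, Prdx3 and Prdx5, and Gpx4 stood lower in M relative to Sod1, Cat, Gpx1, Prdx1 and Prdx5. For M versus A-C, the ratios of Gpx1 or Prdx1 to Sod3 or Gpx4 had to separate, given the orders of the single genes. So did those of Sod2, Gpx1 or Prdx1 to Sod1 or Gpx4 for M versus C.

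Cat and Prdx6 followed the acute phase share in reverse within both M and A-C: the library with the least acute phase RNA had the most Cat and Prdx6, and the library with the most had the least. In M replicate 24, with an acute phase share of 3.32%, Cat was at 2508 and Prdx6 at 306 scaled TPM, and in M replicate 26, with 14.98%, they were at 1586 and 163. In A-C replicate 6, with 2.67%, they were at 2024 and 256, and in A-C replicate 12, with 20.1%, at 997 and 129.6. Within C the order was not reversed. In C replicates 2, 3 and 4 the share was 1.51%, 1.74% and 1.90%, with Cat at 2196, 2286 and 2403 scaled TPM. Prdx6 was at 182, 214 and 234, so both genes rose with the share over this narrow range. The reverse order in both M and A-C held for 12.3% of all tested genes outside the acute phase list. The same order in both M and A-C, which no member showed, held for 10.9%. With 3 libraries a group the order is a description only. In the fit that also held the mean level of the acute phase genes, the log2 change of Prdx6 for M versus C was 0.85 (limma adjusted p = 0.0325), where 8.25% of all genes were called. Without that covariate it was 0.03 (adjusted p = 0.952). The mean log2 acute phase level lay between 6.82 and 6.94 in C and between 7.97 and 10.3 in M. Group and covariate therefore cannot be told apart in this fit.

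**Figure D4:**
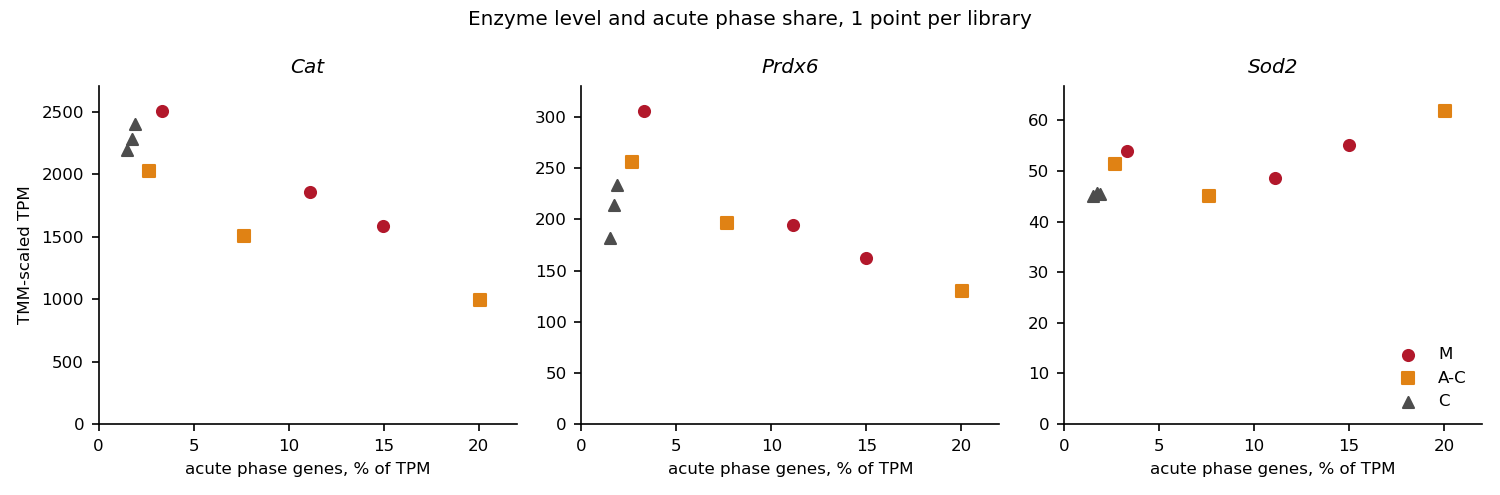
TMM-scaled TPM of Cat, Prdx6 and Sod2 (vertical axes, from 0) against the share of TPM taken by 25 acute phase genes in percent (horizontal axis), 1 point per library of M, A-C and C. Within M and within A-C the Cat and Prdx6 points descend from left to right, while Sod2 has no such order. Within C, over a narrow range of the share, the Cat and Prdx6 points ascend.

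The profiles of the members over the 9 libraries were compared with each other and with those of other genes. Likeness was measured as the root mean square difference of log2(scaled TPM + 1) after centring each gene on its own mean. Among the members, Sod1 was nearest to Gpx4 (0.141) and Prdx5 (0.142), and Cat nearest to Prdx6 (0.223), whereas Sod3 and Gpx1 were farthest apart (0.671). These distances are not small beside the spread of a gene about its own mean. On the same measure that was 0.203 for Sod1, 0.216 for Gpx4, 0.218 for Prdx5, 0.399 for Cat and 0.341 for Prdx6. Among all tested genes with a mean of at least 10 scaled TPM, the nearest to Cat were Ephx2 (0.0762), an epoxide hydrolase, and Tmem106c (0.0826). The nearest to Sod3 was Ecm1 (0.0351), an extracellular matrix protein, the nearest to Gpx4 was Ebp (0.0704), an enzyme of cholesterol synthesis, and the nearest to Gpx1 was Acads (0.134), a fatty acid oxidation enzyme. Sod1 was nearest to Ndufb5 (0.0620) and Prdx5 to Psmg1 (0.0410) and Ndufb9 (0.05004), the Nduf genes coding for respiratory complex I subunits. Prdx1 was nearest to C2cd2l (0.101), Prdx3 to Timmdc1 (0.0587), Prdx6 to Bphl (0.0841) and Sod2 to Desi1 (0.0808).

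Relatives in the same enzyme families were, with 1 exception, not called. Of 9 such genes 7 were tested, and 1 was called, for M versus C. This was Gpx8, a peroxidase of the endoplasmic reticulum, at 0.496, 1.18 and 1.31 scaled TPM in M and 2.92, 1.77 and 2.58 in C. The log2 change was -0.79 (SE 0.20, limma adjusted p = 0.0301), and the call was lost without M replicate 26, M replicate 27 or any one C library (adjusted p up to 0.0942). It was also lost with the acute phase covariate (adjusted p = 0.0516) and with no filter on low values (adjusted p = 0.0561). Leaving out C replicate 2 and A-C replicate 12 together gave an adjusted p of 0.0902. Prdx2, a cytosolic peroxiredoxin, stood between 77.4 and 92.7 scaled TPM in M, 56.8 and 80.6 in A-C, and 94.4 and 109.9 in C, with a log2 change of -0.54 for A-C versus C (adjusted p = 0.0505). Prdx4, of the endoplasmic reticulum, stood between 60.7 and 108 scaled TPM, the secreted Gpx3 between 8.20 and 37.3, and Gpx7 between 0.687 and 2.80 over all libraries, and none was called. Gpx2 and Gpx5 did not reach the filter.

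Among the genes that supply these enzymes with electrons, some passed the test against C in each direction. Of 21 tested genes of the thioredoxin and glutathione supply, 4 rose and 3 fell in A-C versus C, 2 rose and none fell in M versus C, and none was called for M versus A-C. Over all tested genes 9.71% rose and 7.17% fell in A-C versus C, and 9.31% rose and 6.72% fell in M versus C. The list's median log2 change was -0.03 for A-C versus C and 0.03 for M versus C, against 0.03 and 0.05 over all genes, close to each other in both comparisons. The calls described here and below, apart from those of Timm23 and Hspa9 for A-C versus C, were each lost in at least 1 of the 9 fits without 1 library. With the acute phase covariate, the named calls kept were those of Srxn1, Idh2, Selenop, Hao1, Timm23, Hspa9 and Hspd1 for A-C versus C and of Idh2, Selenop, Pex10, Dmgdh and Hspd1 for M versus C. The other named calls were lost in that fit, at adjusted p-values between 0.0565 (Txn1) and 0.374 (Pipox). With no filter on low values, where 20358 genes were tested, those of Txnrd1, Txnrd3, Gsr, Pipox, Pxmp4 and Lonp1 for A-C versus C and of Txnrd1, Dmgdh, Hspd1 and Pstk for M versus C were lost (adjusted p up to 0.0875).

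Srxn1, sulfiredoxin, restores peroxiredoxins whose active cysteine has been over-oxidised. It stood at 16.6, 27.4 and 19.6 scaled TPM in M, at 30.1, 43.7 and 41.2 in A-C, and at 11.8, 18.4 and 16.2 in C. Every A-C library was above every M and C library. It rose in A-C versus C by 1.26 on the log2 scale (SE 0.23, limma adjusted p = 0.0116), a call lost without A-C replicate 9 (adjusted p = 0.0527). For M versus A-C the log2 change was -0.84 (SE 0.23, adjusted p = 0.229).

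Txnrd1, the cytosolic thioredoxin reductase, stood at 30.6, 56.1 and 73.4 scaled TPM in M, at 33.8, 52.4 and 47.5 in A-C, and at 19.1, 22.1 and 21.97 in C. All M and A-C libraries were above C, and the libraries with the smallest acute phase shares, M replicate 24 and A-C replicate 6, were the lowest of their groups. The log2 change was 1.22 for M versus C (SE 0.29, limma adjusted p = 0.0288), and it was 1.03 for A-C versus C (SE 0.29, adjusted p = 0.0438). Both calls were lost with the acute phase level as a covariate, at an adjusted p of 0.261 for M versus C and 0.323 for A-C versus C. The M versus C call was also lost without M replicate 26, M replicate 27 or any one C library (adjusted p up to 0.104), and the A-C versus C call without M replicate 26, A-C replicate 9, A-C replicate 12 or any one C library (adjusted p up to 0.137).

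Idh2, which makes NADPH in mitochondria, stood at 134, 100.2 and 98.4 scaled TPM in M, at 132, 103 and 84.1 in A-C, and at 44.5, 58.0 and 51.4 in C. It rose by 1.09 on the log2 scale in M versus C (SE 0.20, limma adjusted p = 0.0145) and by 1.02 in A-C versus C (SE 0.20, adjusted p = 0.0144). The M versus C call was lost without M replicate 27 (adjusted p = 0.0531) or C replicate 3 (adjusted p = 0.0502), and the A-C versus C call without A-C replicate 9 (adjusted p = 0.0548). Gsr, glutathione reductase, rose by 0.62 in A-C versus C (adjusted p = 0.0415), a call kept in the fit without M replicate 24 but in no other fit without 1 library (adjusted p up to 0.132).

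Txn1, the cytosolic thioredoxin itself, stood at 399, 414 and 406 scaled TPM in M, at 379, 374 and 333 in A-C, and at 500.0, 563 and 579 in C. Every M and A-C library was below C. It fell in A-C versus C by 0.59 on the log2 scale (SE 0.13, limma adjusted p = 0.0209), and the log2 change for M versus C was -0.43 (adjusted p = 0.0587). The A-C versus C call was lost in the TPM as deposited (adjusted p = 0.0871) and without A-C replicate 9, C replicate 3 or C replicate 4 (adjusted p up to 0.0876). Txnrd3 and Sesn2 fell as well in A-C versus C, at between 0.990 and 3.66 and between 4.13 and 5.74 scaled TPM in A-C against 4.30 to 5.90 and 6.98 to 8.44 in C. Their calls were lost in 7 and 4 of the 9 fits without 1 library (adjusted p up to 0.115 and 0.103), and in the TPM as deposited (adjusted p = 0.0516 for Txnrd3 and 0.0680 for Sesn2). Txnrd3 is a thioredoxin reductase known mainly from testis, and Sesn2 a stress-induced sestrin. Nnt, a mitochondrial source of NADPH that carries a known deletion in C57BL/6J mice, has 2 gene IDs in the table. ENSMUSG00000025453 stood between 0.270 and 0.411 scaled TPM, ENSMUSG00000116207 was listed at 0 in every library, and neither was tested.

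**Figure D5:**
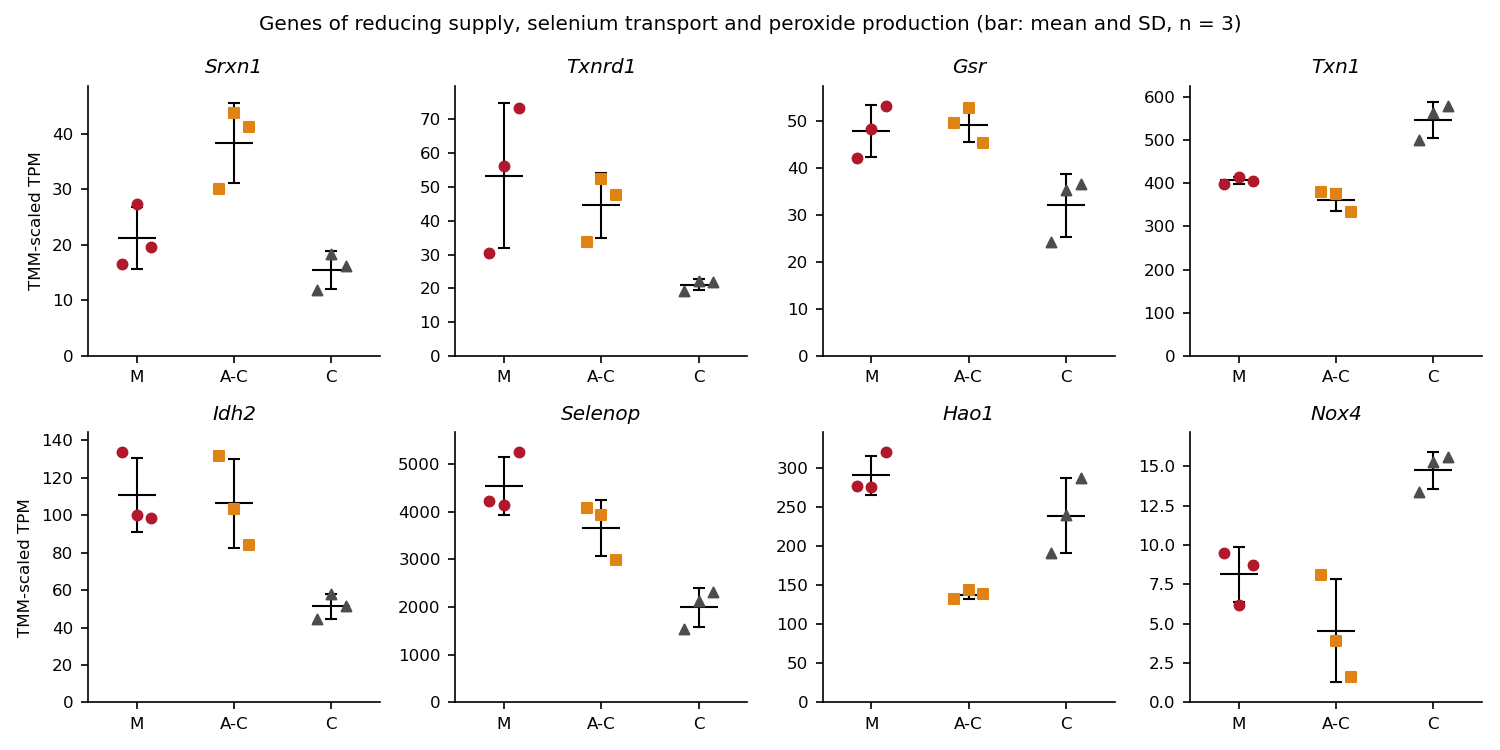
TMM-scaled TPM (vertical axes, from 0) of 4 genes of the thioredoxin and glutathione chain (Srxn1, Txnrd1, Gsr, Txn1), of Idh2, of the selenium carrier Selenop and of the peroxide producers Hao1 and Nox4 in M, A-C and C, 1 point per library, with mean and SD (n = 3). Txnrd1, Idh2 and Selenop are higher in every M and A-C library than in C, Txn1 and Nox4 are lower, and Hao1 is lowest in A-C.

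Gpx1 and Gpx4 depend on selenium. Selenop, the selenium carrier that liver secretes into plasma, stood at 4234, 4152 and 5245 scaled TPM in M, at 4083, 3927 and 2989 in A-C, and at 1542, 2126 and 2322 in C. It rose by 1.20 on the log2 scale in M versus C (SE 0.21, limma adjusted p = 0.0129) and by 0.88 in A-C versus C (SE 0.21, adjusted p = 0.0258). The first call was lost without M replicate 27 (adjusted p = 0.0673) or C replicate 3 (adjusted p = 0.0522), and the second without A-C replicate 9, C replicate 2 or C replicate 3 (adjusted p up to 0.0915). Of the 7 tested genes of selenocysteine insertion, Pstk, a kinase that acts on the selenocysteine tRNA, was the one other gene called. It stood between 1.03 and 1.67 scaled TPM in M, 0.780 and 1.38 in A-C, and 2.02 and 2.64 in C. Its log2 change was -0.52 for M versus C (limma adjusted p = 0.0489), which was lost without M replicate 26, M replicate 27, A-C replicate 9 or any one C library (adjusted p up to 0.172) and in the TPM as deposited (adjusted p = 0.117). For A-C versus C it was -0.69 (adjusted p = 0.0209), which was lost without A-C replicate 9, C replicate 3 or C replicate 4 (adjusted p up to 0.0849).

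Of 19 tested genes listed as producers of superoxide or peroxide, 1 rose and 3 fell in A-C versus C. Of all tested genes, 9.71% rose and 7.17% fell in that comparison. In M versus C 2 genes of the list rose and none fell, against 9.31% and 6.72% of all genes. None of the list was called for M versus A-C.

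Hao1, the peroxisomal glycolate oxidase, stood at 277, 276 and 320.4 scaled TPM in M, at 132, 144 and 139 in A-C, and at 191, 239.9 and 287 in C. Every A-C library was below every M and C library. It fell in A-C versus C by 0.77 on the log2 scale (SE 0.17, limma adjusted p = 0.0195), and the log2 change for M versus A-C was 1.07 (SE 0.17, adjusted p = 0.0539). The A-C versus C call was lost in the TPM as deposited (adjusted p = 0.0565) and without A-C replicate 9, C replicate 3 or C replicate 4 (adjusted p up to 0.0771). Nox4, an NADPH oxidase that releases hydrogen peroxide, fell in A-C versus C by 1.68 (adjusted p = 0.0215), at 8.12, 3.92 and 1.64 scaled TPM in A-C against 13.4, 15.3 and 15.6 in C. That call was lost without A-C replicate 9 or any one C library (adjusted p up to 0.0771). Pipox, a peroxisomal oxidase, fell by 0.85 in A-C versus C (adjusted p = 0.0490), which of the 9 fits without 1 library was kept in those without M replicate 24 or A-C replicate 6 (up to 0.132 in the others). It was also lost in the TPM as deposited (adjusted p = 0.0986) and with median-of-ratios scaling (adjusted p = 0.0514). Dmgdh, on the list although it is a mitochondrial dehydrogenase and not an oxidase, rose by 0.77 in M versus C (adjusted p = 0.0451). Of those 9 fits, its call was kept when A-C replicate 6 or 12 was the library left out (up to 0.149 in the others).

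Genes of the organelles that hold these enzymes were examined beside them. For comparison, 9.71% of all tested genes rose and 7.17% fell in A-C versus C. The shares for M versus C were 9.31% and 6.72%. Of 22 genes of peroxisome assembly and membrane, 2 rose and none fell in A-C versus C, among them Pxmp4, by 0.66 on the log2 scale (limma adjusted p = 0.0318). In M versus C 2 rose, among them Pex26, by 0.74 (adjusted p = 0.0189), and Pex10 fell by 0.79 (adjusted p = 0.0102). The largest adjusted p without 1 library was 0.121 for Pxmp4 in A-C versus C, and 0.0806 for Pex26 and 0.0505 for Pex10 in M versus C. Of 15 genes of mitochondrial content, 5 rose in A-C versus C and 4 in M versus C, and none fell. They include the chaperones Hspa9 and Hspd1, the import channel Timm23 and the protease Lonp1. Hspa9 stood at 304, 273 and 317 scaled TPM in M, at 353, 349 and 365 in A-C, and at 122, 176 and 197 in C. Its log2 change was 0.87 for M versus C (adjusted p = 0.0200), and it was 1.13 for A-C versus C (adjusted p = 0.00807), with adjusted p-values without 1 library up to 0.0892 for M versus C and up to 0.0363 for A-C versus C. The mitochondrial members Sod2 and Prdx3 were not called in either comparison, and the difference between them and these genes was not tested.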

How the data were processed

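Liver RNA from 9 samples was extracted with Trizol and sequenced, per the labels' protocols. The authors deposited TPM values, reads per gene length scaled to a common total, with mm10 as genome build per the submitters' processing notes. For aligner, counter, annotation and strand the sources used here name nothing. Of 32248 lines, 452 repeat 168 gene IDs, and 1 line per ID was kept. TPM times exon length gave whole reads (within 0.1) for at least 99.965% of values above 0. TMM factors from these reads (trimming 30% of log ratios and 5% of mean levels) scaled the TPM. Genes with a TPM of at least 1 in at least 3 libraries were tested on log2(scaled TPM + 1) with limma 3.58.1 (R 4.3.3), with trend and robust moderation, 6 residual degrees of freedom, and Benjamini-Hochberg adjustment. A fold change on this scale understates that of low genes. Every pair of libraries differed beyond sampling noise.

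The 10 members and all lists were chosen with earlier results of these data known. Up to 4 called genes per list and comparison with the largest change, the enzyme relatives, and the 2 genes most like each member could be named. Gsr, Txn1, Sesn2, Ccs and Nnt are named beyond that rule, after their values were seen. Some called genes of the lists are counted but not reported here by name. Tested on simulated data with the levels and spread of the 11086 genes, the fit found 58 of 100 genes changed by 1 log2 and 90 of 100 changed by 2 log2 in A-C versus C. It found 71 and 96 of 100 in M versus A-C, and 62 and 94 of 100 in M versus C. Alternatives were the TPM as deposited, median-of-ratios scaling, a pseudocount of 0.1, no filter, the 2 groups compared alone and leaving out each library. An acute phase covariate, leaving out C replicate 2 with A-C replicate 12, and principal transcript lengths were added after the data were seen. The acute phase level was lower in every C library than in all others, so fits with it cannot separate it from differences against C.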

Additional observations from a re-analysis of the deposited data

How the results depend on the processing

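No paired analysis was possible because the groups share no replicate numbers. Under the 16 alternatives, 35 log2 changes of members changed sign, none of which passed the threshold, and 5 others passed it. A log2 change cannot move with no filter, with the 2 groups alone or without a library of the third group, so those fits say nothing of its direction. For A-C versus C, Sod3 was at 0.18 in the TPM as deposited, Prdx6 at 0.0704. With the acute phase covariate Sod1 was at 0.0276, Sod3 at 0.15 and Prdx6 at 0.57. Without C replicate 2 and A-C replicate 12, Sod3 was at 0.29 and Prdx6 at 0.0062. For M versus A-C, Sod2 was at -0.0078 with the covariate and Prdx6 at -0.074 without those 2 libraries. For M versus C, Sod3 was at 0.0156 and Cat at 0.0443 in the TPM as deposited, Cat at 0.51 with the covariate, and Sod3 at 0.0441, Prdx3 at -0.1167 and Prdx6 at -0.0677 without those 2 libraries. Leaving out 1 library gave, for A-C versus C, -0.22 to 0.25 for Sod3, -0.0947 to 0.43 for Gpx1, -0.0649 to 0.14 for Gpx4 and -0.38 to 0.10 for Prdx6. For M versus A-C it gave -0.10 to 0.12 for Sod2, -0.0223 to 0.17 for Prdx5 and -0.074 to 0.41 for Prdx6. For M versus C it gave -0.43 to 0.0441 for Sod3, -0.12 to 0.13 for Prdx3 and -0.23 to 0.22 for Prdx6.

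Members called numbered 3 as higher for M versus C in the TPM as deposited, 1 with the covariate, and 0 to 1 as lower for A-C versus C without 1 library. Of all genes, 1076 were higher and 795 lower for A-C versus C, 4 and 15 for M versus A-C, and 1032 and 745 for M versus C. In the TPM as deposited the counts were 2385 and 404 for A-C versus C, and 2931 and 351 for M versus C. Without a filter they were 1 and 5 for M versus A-C, and 589 higher for M versus C. For M versus A-C a pseudocount of 0.1 gave 9 higher, and the 2 groups alone gave 0 and 2. The covariate gave 128 and 136 for M versus A-C and 619 and 296 for M versus C. Without C replicate 2 and A-C replicate 12 the counts were 383 and 247 for A-C versus C, 2 and 8 for M versus A-C, and 572 higher for M versus C. Leaving out 1 library gave 205 to 1226 higher and 126 to 967 lower for A-C versus C, 0 to 7 and 3 to 23 for M versus A-C, and 121 to 1415 and 70 to 1096 for M versus C. The cause of these shifts was not tested. For Sod2 in C and Sod3 in M the spread of the 3 libraries was near or under the counting error, so it cannot be told apart from that error.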
